A study of Mus musculus with 8 samples.

Results

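Melanocytes make up a small part of the newborn epidermis, and they belong to another lineage than the keratinocytes in which the Krt14 promoter is active. Expression of 10 melanocyte lineage genes was analyzed in epidermis lacking EED, an essential subunit of Polycomb repressive complex 2 (PRC2), which deposits the repressive histone mark H3K27me3. The 10 genes were Mitf, Sox10, Kit, Ednrb, Pmel, Mlana, Tyr, Tyrp1, Dct and Slc45a2. Their probes were found by matching the RefSeq accession printed for each array probe to these symbols. All 10 genes had at least 1 probe, out of 36799 genes and other targets on the array, of which 23139 had enough signal to be tested.

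The profiled tissue was back skin epidermis of newborn (P0) C57BL/6 mice, 4 EED cKO (K14-Cre; EED flox/flox) and 4 control samples labelled CTL. The labels call them biological replicates and do not say how many mice each one holds, and the alleles of the controls are not given for the arrays. The EED cKO mice received no treatment, nor did the controls. Each sample shared a two-colour Agilent mouse array with Universal Mouse Reference RNA, which is sold as a mix of mouse RNA, so every value is a log2 ratio of sample over that reference. The sample carried the dye Cy3 in replicates 1 and 3 and Cy5 in replicates 2 and 4 of both genotypes. K14-Cre deletes Eed in keratinocytes and in cells derived from them, such as Merkel cells, and melanocytes come from a lineage in which the Krt14 promoter is not known to act.

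Melanocytes arise from the neural crest, reach the skin as melanoblasts, and settle in the epidermis and the hair follicles. SOX10 and PAX3 act on the Mitf gene, and MITF in turn drives the genes for the melanosome and for pigment synthesis. Survival and migration of the cells depend on the receptors KIT and EDNRB and on their ligands from the surrounding skin. MITF is a basic helix-loop-helix factor that binds a CATGTG or CACGTG element, and in pigment genes a longer form of the first element is known as the M-box.

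The sequence upstream of the pigment enzyme genes shows this shared element. RefSeq promoter windows (GRCm38.p6) were found for 6 of the 10 genes, Mitf, Kit, Ednrb, Tyr, Tyrp1 and Dct. The 250 bases before the transcript start are printed for the 3 genes whose window held the element, 5′ to 3′ on the strand of the gene, with each CATGTG (or CACATG where it lies on the other strand) in capitals. The windows are chr7:87493513-87493762 on the minus strand for Tyr, chr4:80833963-80834212 on the plus strand for Tyrp1 and chr14:118052247-118052496 on the minus strand for Dct.
Tyr: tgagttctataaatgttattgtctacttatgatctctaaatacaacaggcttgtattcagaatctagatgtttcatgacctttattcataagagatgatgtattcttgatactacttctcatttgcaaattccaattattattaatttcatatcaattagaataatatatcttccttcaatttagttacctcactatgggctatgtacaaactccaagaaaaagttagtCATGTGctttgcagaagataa
Tyrp1: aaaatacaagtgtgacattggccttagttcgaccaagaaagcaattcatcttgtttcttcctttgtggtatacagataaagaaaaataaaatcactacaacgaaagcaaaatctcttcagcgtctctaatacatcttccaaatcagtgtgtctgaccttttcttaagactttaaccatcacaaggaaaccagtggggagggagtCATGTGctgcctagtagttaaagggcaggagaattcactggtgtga
Dct: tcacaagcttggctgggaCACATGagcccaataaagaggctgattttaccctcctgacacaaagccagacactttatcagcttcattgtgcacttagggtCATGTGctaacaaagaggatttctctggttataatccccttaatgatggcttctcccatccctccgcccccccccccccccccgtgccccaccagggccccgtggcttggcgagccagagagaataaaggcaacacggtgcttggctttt
In the Tyr window CATGTG began 21 bases before the start, and in the Tyrp1 window 46 bases before it. The Dct window held the element at 150 bases before the start, and again on the other strand at 232 bases before it. Searched on both strands, CATGTG was found in 4025 of 32851 promoter windows of the same length (12.3%) and CACGTG in 1978 (6.02%). The run around CATGTG that the Tyr and Tyrp1 windows share is AGTCATGTGCT, the M-box, and it occurred in 7 windows of the whole table (0.0213%). The windows of Mitf, Kit and Ednrb held neither 6-base element. A match of letters describes the sequence and does not show that a factor binds there.

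All 10 genes gave a sample signal well above background on all 8 arrays, so the epidermal RNA of both genotypes held melanocyte transcripts. Dct, the dopachrome tautomerase gene and an early melanoblast marker, was read at 89.0-fold over the reference in control and at 99.8-fold in EED cKO samples (from the mean log2 ratios). The genotype difference of each gene was small. Of the 10 genes, Sox10 was lower in EED cKO epidermis at an adjusted p below 0.05 in limma, and the other 9 did not pass. None of the 10 reached a 2-fold difference. Without adjustment, limma gave 5 of the 10 a p below 0.05, a level whose share over all tested targets was not determined. That share is not the 21.7% given next, which is for an adjusted p below 0.05. Over all 23139 tested targets, 5025 passed (21.7%), of which 2727 were higher (11.8%) and 2298 lower (9.93%), and 278 also reached 2-fold (1.2%). The 10 genes thus passed no more often than the array as a whole. Their log2 fold changes were above 0 for 6 genes and below 0 for 4, with a median of 0.17, against 0.02 over all tested targets. A log2 fold change past 0.50 in size was found for 2 of the 10, Sox10 and Kit, and for 8.28% of all tested targets. Sox10, at -0.5005, lay right at that limit, so the count of 2 depends on where the limit was set. For each of the 10 genes the 95% interval of the fold change lay within 2-fold.

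**Figure D1:**
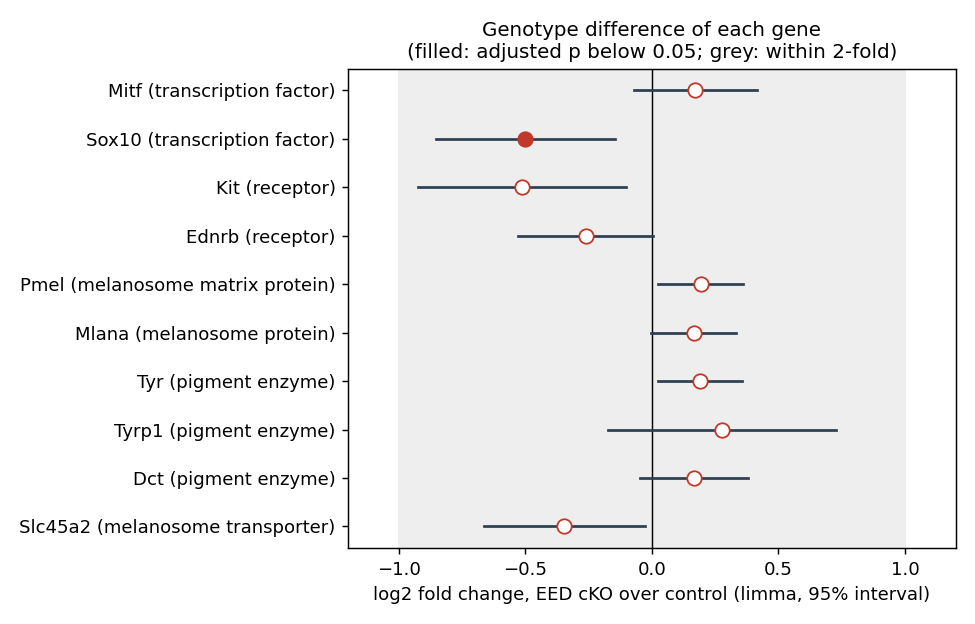
Log2 fold change of each melanocyte lineage gene, EED cKO over control, from limma on 4 against 4 arrays; the points are the estimates, the horizontal lines their 95% intervals, the filled point has an adjusted p below 0.05, and the grey band spans 2-fold in either direction. All 10 intervals stay inside the band, with the widest for Tyrp1 (-0.17 to 0.73) and Kit (-0.93 to -0.10).

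In bulk RNA, a lower value from fewer melanocytes and a lower value from less RNA in each melanocyte cannot be told apart. The reading of the fold changes also rests on a few features of the arrays. The median sample signal was between 113 and 237 on control arrays and between 124 and 205.5 on EED cKO arrays, with control replicates 2 and 4 among the brightest. Y-linked transcripts averaged log2 ratios of 1.19 and 1.02 in control replicates 2 and 3, and between -1.51 and -1.31 in the other 6 samples, so that Y-linked RNA was not balanced between the genotypes. Because each genotype filled its own row of the slide, place on the slide and genotype cannot be told apart. Eed itself was lower in EED cKO samples, with a log2 fold change of -1.46 (adjusted p = 2.1e-05 in limma).

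The 2 transcription factors of the set lay on opposite sides of 0. Mitf encodes the central regulator of the melanocyte lineage. Its log2 ratios were -0.61, 0.22, -0.36 and 0.15 in EED cKO replicates 1 to 4, and -0.80, -0.03, -0.34 and -0.12 in control replicates 1 to 4. The ranges overlapped, and in both genotypes the Cy5 arrays read higher than the Cy3 arrays. The log2 fold change of Mitf was 0.17 ± 0.11 (SE; adjusted p = 0.292 in limma), and a second Mitf probe gave 0.11.

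Sox10 encodes an HMG box factor needed for neural crest derivatives, both melanocytes and glia. EED cKO replicates 1 to 4 had log2 ratios of 1.06, 1.61, 1.24 and 1.34, and control replicates 1 to 4 had 1.11, 2.39, 1.71 and 2.04. Control replicate 1 was as low as the EED cKO samples, and the other 3 control samples lay above all EED cKO samples. The mean was 1.31 ± 0.23 in EED cKO and 1.81 ± 0.54 in control samples (SD, n = 4 each). Sox10 thus had a log2 fold change of -0.50 ± 0.16 (SE), a level in EED cKO at 0.707 of control with a 95% interval of 0.553 to 0.903, and the adjusted p was 0.0489 in limma. Within each replicate number the EED cKO sample was the lower one in 4 of 4. An exact two-sided permutation test of the 8 samples, which takes no account of dye or pairs, gave p = 0.171, and limma with the replicate number as a block gave an adjusted p of 0.0190. The difference was -0.26 between the Cy3 arrays and -0.74 between the Cy5 arrays.

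The Sox10 call was close to its threshold and did not hold under several other ways of treating the arrays. The order of the 4 control samples in Sox10 (replicates 2, 4, 3 and 1 from high to low) was also their order in median sample signal, 237, 205, 163 and 113. The EED cKO samples had the same order in Sox10 but not in signal, which was 205.5, 145, 142 and 124 in replicates 2, 3, 4 and 1. With median sample signal as a further term, an alternative chosen after seeing the data, Sox10 still passed. Its log2 fold change was then -0.32 (adjusted p = 0.0460 in limma). With the mean Y-linked ratio as a further term it was -0.28 (adjusted p = 0.240). Leaving out any 1 array other than control replicate 1 moved the adjusted p above 0.05, with fold changes between -0.59 and -0.38, and without control replicate 1 the fold change was -0.67 (adjusted p = 0.00643).

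**Figure D2:**
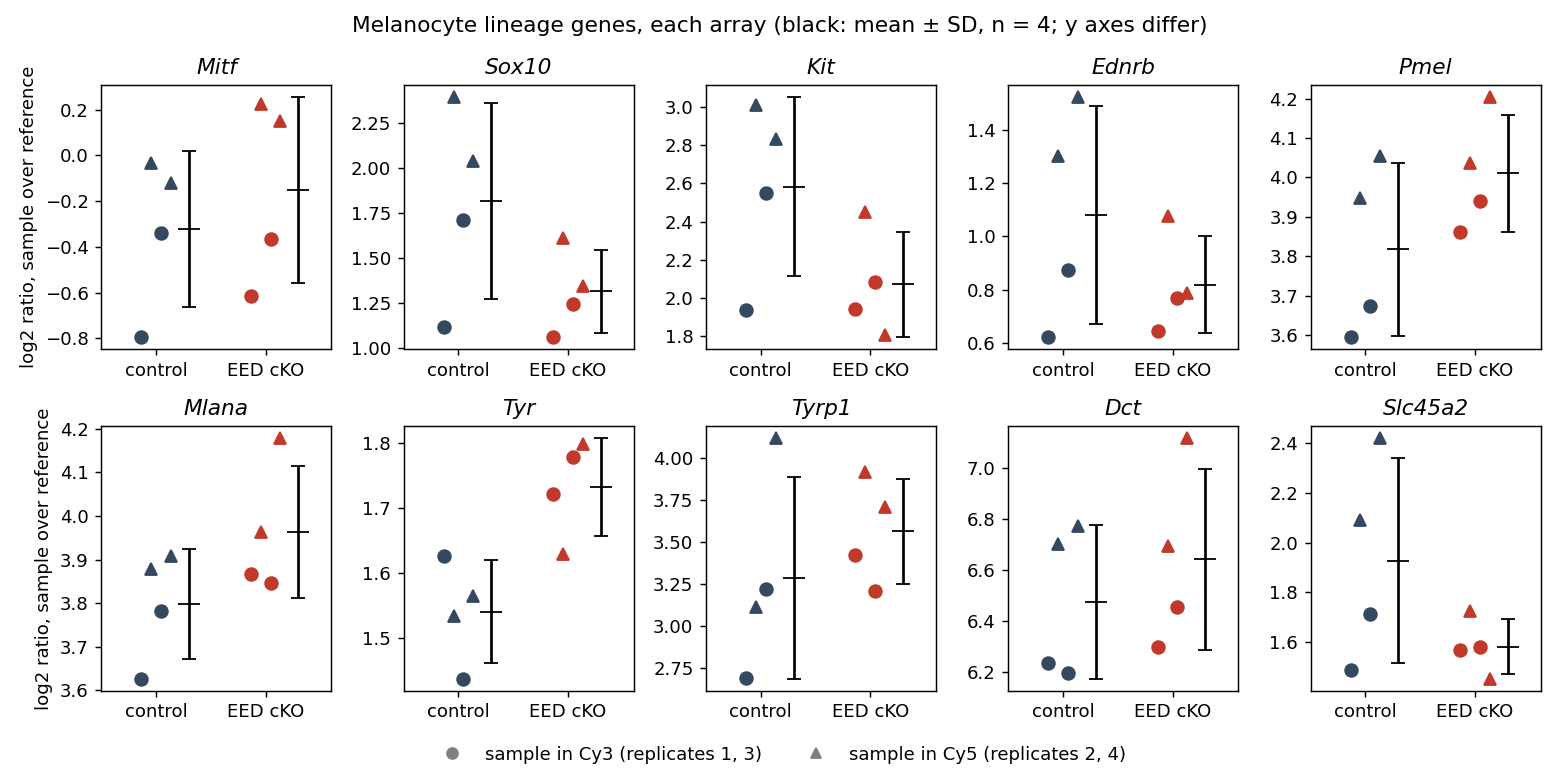
Log2 ratio of sample over reference (y axis, scaled separately in each panel) for each of the 10 genes in every control (dark) and EED cKO (red) sample; circles are arrays with the sample in Cy3, triangles arrays with the sample in Cy5, and the black bars show the mean ± SD of 4 samples. Groups overlap in 9 of the 10 panels, Tyr being the exception, and control replicate 1 is the lowest control point in 8 of the 10 panels, all but Tyr and Dct.

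The receptor genes both lay lower in EED cKO epidermis without passing the test. Kit encodes the receptor for Kit ligand (stem cell factor), which melanoblasts need to survive and spread through the epidermis. Log2 ratios of Kit were 1.94, 2.45, 2.08 and 1.81 in EED cKO replicates 1 to 4, and 1.94, 3.01, 2.55 and 2.83 in control replicates 1 to 4. As for Sox10, control replicate 1 lay among the EED cKO samples and the other 3 controls lay above all of them. Kit had a log2 fold change of -0.51 ± 0.18 (SE; adjusted p = 0.0740 in limma), with a 95% interval of -0.93 to -0.10. Kit passed with the replicate number as a block (adjusted p = 0.0361) and without control replicate 1 (log2 fold change -0.69, adjusted p = 0.0142). The probe was well above background in the reference channel on 0 of 8 arrays, so its ratio has a denominator near the background. Feature Extraction's own log ratio, which treats dim spots differently, gave a log2 fold change of -0.13.

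Ednrb encodes the endothelin receptor B, which receives the endothelin signal to neural crest cells. Log2 ratios of 0.64, 1.08, 0.77 and 0.79 were measured in EED cKO replicates 1 to 4, and of 0.62, 1.30, 0.87 and 1.52 in control replicates 1 to 4. The ranges overlapped, with both Cy5 control arrays above every EED cKO array. For Ednrb the log2 fold change was -0.26 ± 0.12 (SE; adjusted p = 0.147 in limma). Nearly all of it came from the Cy5 arrays, where the difference was -0.48, against -0.04 between the Cy3 arrays. A second Ednrb probe gave -0.11.

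Slc45a2, which encodes a melanosomal transporter needed for normal pigmentation, also read highest on both Cy5 control arrays. Its log2 ratios were 1.57, 1.72, 1.58 and 1.45 in EED cKO replicates 1 to 4, and 1.49, 2.09, 1.71 and 2.42 in control replicates 1 to 4. The control samples spread widely (SD 0.41) around the narrow EED cKO group (SD 0.11), and both Cy3 controls, replicates 1 and 3, lay within the EED cKO range. The log2 fold change was -0.35 ± 0.14 (SE; adjusted p = 0.113 in limma), split into -0.03 between the Cy3 arrays and -0.66 between the Cy5 arrays. Without control replicate 1 it was -0.45 (adjusted p = 0.0446), and with Feature Extraction's log ratio -0.06. Sample signals above background were between 43 and 144 for Ednrb, 72 and 215 for Slc45a2, 79 and 458 for Sox10, and 93.2 and 330 for Kit. The probe for Tyr, which lay higher in EED cKO samples, read 146 to 265. That is within the ranges of Sox10 and Kit, partly within that of Slc45a2, and above that of Ednrb. A dimmer probe for Tyr gave a log2 fold change of -0.04. The part of probe brightness in these differences was not tested. With array brightness as a further term, the log2 fold change was -0.28 for Kit (adjusted p = 0.0373 in limma), -0.16 for Ednrb (adjusted p = 0.338) and -0.24 for Slc45a2 (adjusted p = 0.271).

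Pmel, Mlana, Tyr, Tyrp1 and Dct, which encode proteins of the melanosome and of melanin synthesis, lay slightly higher in EED cKO epidermis, and none of them passed. Pmel encodes the protein of the fibrils on which melanin is laid down. The Pmel log2 ratios were 3.86, 4.04, 3.94 and 4.20 in EED cKO replicates 1 to 4, and 3.59, 3.95, 3.67 and 4.06 in control replicates 1 to 4. Every EED cKO sample exceeded the control of the same number, although the ranges overlapped. Pmel differed by a log2 fold change of 0.19 ± 0.07 (SE; adjusted p = 0.0931 in limma).

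Mlana encodes a small membrane protein of the early melanosome that is widely used as a melanocyte marker. Log2 ratios were 3.87, 3.96, 3.85 and 4.18 in EED cKO replicates 1 to 4, and 3.63, 3.88, 3.78 and 3.91 in control replicates 1 to 4. Again the EED cKO sample was the higher one in 4 of 4 numbered pairs and the ranges overlapped. For Mlana the log2 fold change was 0.16 ± 0.07 (SE; adjusted p = 0.142 in limma).

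Tyr, Tyrp1 and Dct encode the related enzymes of the melanin pathway, and their promoter windows share the CATGTG element printed above. Tyrosinase, the product of Tyr, carries out the rate-limiting first steps. Tyr had log2 ratios of 1.72, 1.63, 1.78 and 1.80 in EED cKO replicates 1 to 4, and 1.63, 1.53, 1.44 and 1.56 in control replicates 1 to 4. Tyr was the 1 gene of the 10 whose groups did not overlap, which held for 17.2% of all tested targets, and its lowest EED cKO sample was only just above its highest control. An exact two-sided permutation test gave p = 0.0286, the smallest that 4 against 4 samples allow. In limma, its log2 fold change was 0.19 ± 0.07 (SE; adjusted p = 0.0938). A second, dimmer Tyr probe, with sample signals between 16.2 and 38.1 above background, gave -0.04.

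Tyrp1 encodes an enzyme that also stabilizes tyrosinase. Its log2 ratios were 3.42, 3.91, 3.21 and 3.71 in EED cKO replicates 1 to 4, and 2.69, 3.11, 3.22 and 4.12 in control replicates 1 to 4. The highest and the lowest of the 8 values were both controls, and the EED cKO sample was the higher one in 2 of 4 pairs. Tyrp1 had the largest spread of the 10 genes among control samples (SD 0.60), and its log2 fold change was 0.28 ± 0.20 (SE; adjusted p = 0.358 in limma). Single control arrays moved this estimate both ways, to 0.49 without control replicate 4 (adjusted p = 0.0455), 0.093 without control replicate 2 and 0.15 without control replicate 1.

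For Dct, log2 ratios were 6.30, 6.69, 6.46 and 7.11 in EED cKO replicates 1 to 4, and 6.23, 6.70, 6.20 and 6.77 in control replicates 1 to 4. Both genotypes covered nearly the same range, and the dye separated the arrays more than the genotype did. The log2 fold change was 0.17 ± 0.10 (SE; adjusted p = 0.246 in limma), with 0.12 from a second Dct probe. The small positive shift of this group was smaller under another normalization. With median centring in place of loess, the fold changes of Mitf, Pmel, Mlana, Tyr, Tyrp1 and Dct were 0.01, 0.01, -0.01, 0.09, 0.12 and 0.02. With Feature Extraction's log ratio the same genes stayed above 0, from 0.06 (Tyrp1) to 0.27 (Tyr). Median centring also leaves out the intensity-dependent part of loess, and the cause of the change was not tested. In the loess fit, the 8 keratinocyte markers likewise all lay above 0, with a median of 0.11.

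**Figure D3:**
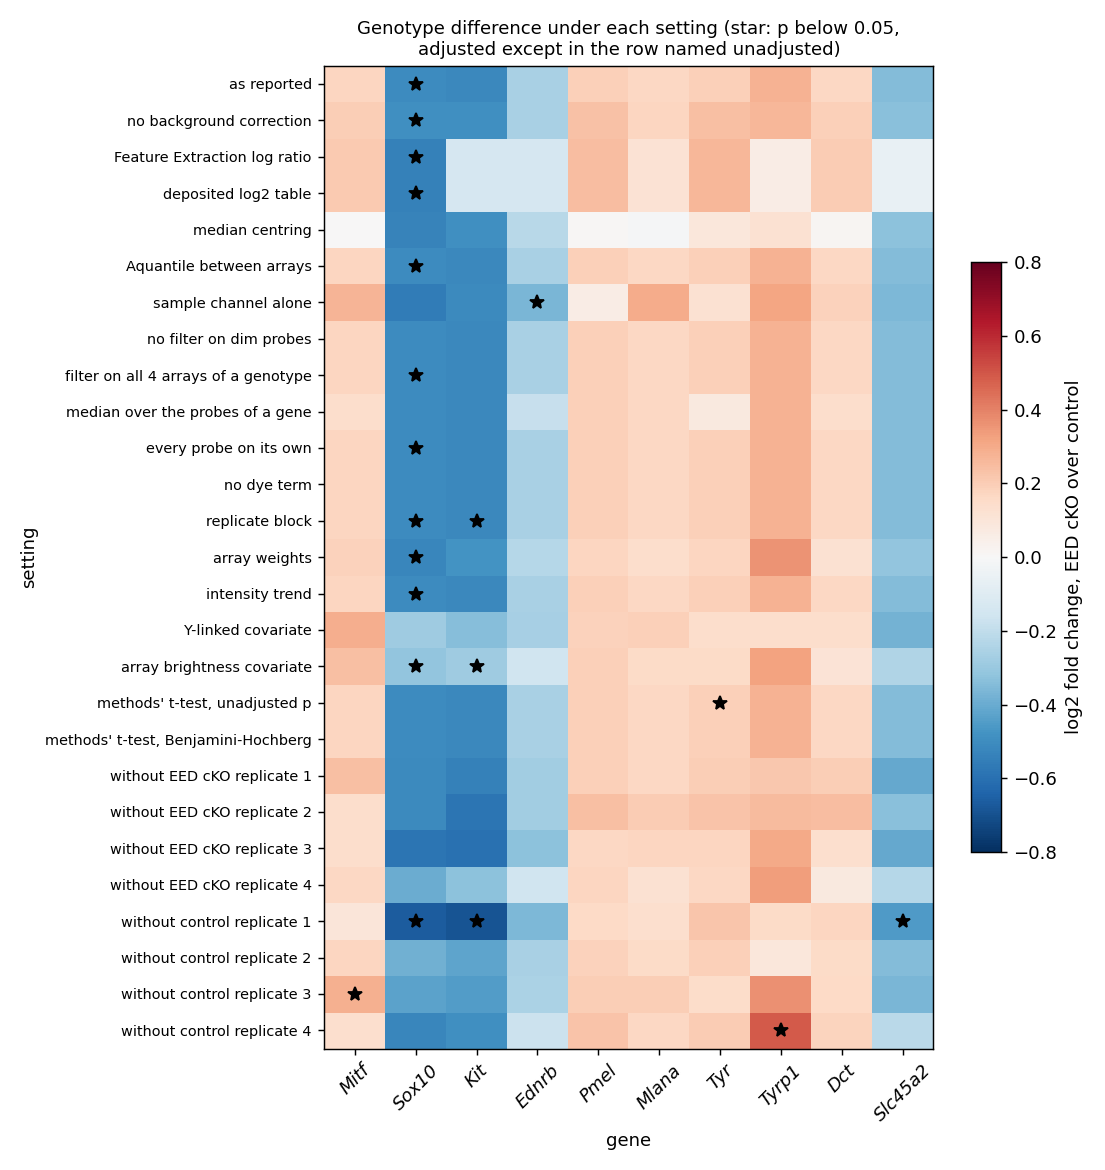
Log2 fold change, EED cKO over control, of the 10 genes (columns) as reported and under 26 other settings (rows); red is higher and blue lower in EED cKO, and a star marks a p below 0.05, adjusted except in the row named unadjusted. Sox10, Kit, Ednrb and Slc45a2 stay blue in every row, Sox10 carries a star in 11 of the 26 alternatives, and the red columns fade under median centring. The Aquantile row leaves the ratios unchanged and repeats the reported fit, and the row of the deposited table nearly repeats Feature Extraction's log ratio.

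Each gene was also followed across arrays after removal of genotype and dye. The 10 tested genes of the array whose residuals were most like the mean residual of the melanocyte genes over the 8 arrays were Poli, Cd300lf, Ms4a6c, Armc10, Cep89, Dnajc13, Adal, Pirb, Ptk2 and Saxo1, with Pearson's r between 0.987 and 0.996. This is a description over 8 arrays that share 1 slide and differ in brightness, and these are the highest values picked from all tested genes with a symbol. The melanocyte genes did not run together as 1 group. The r of each with the mean of the others went from -0.30 (Tyr) to 0.77 (Pmel), with 0.08 for Dct and 0.20 for Mitf. Some of them did run together. Among Sox10, Kit, Ednrb and Slc45a2, r lay between 0.55 (Sox10 with Slc45a2) and 0.96 (Ednrb with Slc45a2). Dct had an r of 0.70 with Pmel, 0.69 with Mlana and 0.73 with Tyr. Kit ran opposite to Tyr (-0.67) and Dct (-0.59). The cause of these patterns was not tested. None of the 10 genes from Poli to Saxo1 is a pigment gene. Of them, Poli (log2 fold change -0.46) and Dnajc13 (-0.35) passed the genotype test in limma, with adjusted p of 0.0165 and 0.0278.

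Next, genes that act with the melanocyte lineage were examined in lists by role. Over all tested targets 21.7% passed, 11.8% higher and 9.93% lower. Of the tested genes, 40% passed among melanosome genes, 35.7% among lysosome-related organelle genes and 40% among ligands. Among other receptors 33.3% passed, and among transcription factors 54.5%. The lists are short and were chosen with earlier results known, so these shares were not tested. Among 11 further melanosome genes, 10 were tested, of which 2 were higher and 2 lower, with a median log2 fold change of 0.02. Oca2, which encodes a melanosomal channel, was above background on too few arrays to be tested. Slc24a5, Gpr143, Gpnmb, Trpm1, Rab38 and Mlph did not pass, with fold changes from -0.26 (Gpr143) to 0.25 (Rab38). The 4 genes that passed act in melanosome biogenesis and transport and are also used outside melanocytes. Rab27a, the GTPase that tethers melanosomes to the actin motor, had log2 ratios of 1.29 to 1.58 in EED cKO and 2.04 to 2.59 in control samples, and its log2 fold change was -0.95 ± 0.13 (SE; adjusted p = 0.00189 in limma). Myo5a, the motor itself, was lower by a smaller amount (-0.46, adjusted p = 0.0343), with overlapping groups. Rab32, a GTPase of melanosome biogenesis, was higher (0.49, adjusted p = 0.0127), as was the melanoregulin gene Mreg (0.45, adjusted p = 0.0330). Mreg and Myo5a passed in 14 and 13 of the 26 alternatives, Rab27a in all 26 and Rab32 in 23.

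Among 15 genes for lysosome-related organelles, which build the trafficking complexes that deliver cargo to melanosomes and to other organelles in many cell types, 14 were tested, 1 was higher and 4 were lower. The median log2 fold change was -0.13. Bloc1s3, a subunit of the BLOC-1 complex, was the higher one (0.51, adjusted p = 0.00284 in limma). The lower ones included Ap3b1 (-0.38, adjusted p = 0.00967), a subunit of the AP-3 adaptor, Vps33a (-0.44, adjusted p = 0.0237) and Hps4 (-0.42, adjusted p = 0.0255). Of these, the EED cKO and control samples did not overlap for Bloc1s3 and Ap3b1, which passed in 25 of the 26 alternatives each, whereas Vps33a and Hps4 each passed in 16. Groups did not overlap for 3 of the 14 tested genes of this list, beside 17.2% of all tested targets.

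The skin supplies several ligands to melanocytes. Of 10 such genes, 5 were tested, 2 were higher and 0 lower, with a median log2 fold change of 0.42. By limma without adjustment 3 of the 5 had a p below 0.05, a level whose share over all tested targets was not determined. Nrg1, a ligand of the ERBB receptors, had log2 ratios of -2.05 to -1.43 in EED cKO and -2.39 to -2.24 in control samples, with a log2 fold change of 0.64 ± 0.10 (SE; adjusted p = 0.00323 in limma). Pomc, the precursor of the melanocortin peptides, was higher by 0.42 (adjusted p = 0.0124), without overlap of the groups. Groups did not overlap for 2 of the 5 tested ligand genes, beside 17.2% of all tested targets. Kitl, which encodes the ligand of KIT, did not pass (0.46, adjusted p = 0.0712), although it did with the replicate number as a block (adjusted p = 0.00856). Edn1, an endothelin gene, gave 0.20 (adjusted p = 0.272). Edn3, Hgf, Fgf2 and Adamts20 were well above background on no array.

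Of 3 other receptor genes of melanocytes, all tested, 0 were higher and 1 was lower in limma, with 1 at an unadjusted p below 0.05. The share of all tested targets at that unadjusted level was not determined. Mc1r, the melanocortin receptor that governs the type of melanin made, had log2 ratios of 1.66 to 2.62 in EED cKO and 1.79 to 3.36 in control samples. Its log2 fold change was -0.67 ± 0.20 (SE; adjusted p = 0.0388 in limma), and the EED cKO sample was the lower one in 4 of 4 pairs. The groups overlapped, the reference channel was above background on 2 of 8 arrays, and the gene passed in 13 of the 26 alternatives. Erbb3 (-0.12, adjusted p = 0.291) and Met (-0.003, adjusted p = 0.981) did not pass.

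Of 13 transcription factor genes of the neural crest and melanoblasts, 11 were tested, 1 was higher and 5 were lower, with a median log2 fold change of -0.04. Pax3, the paired box factor that acts upstream of Mitf in melanoblasts, had log2 ratios of -0.31 to 0.16 in EED cKO and -1.26 to -0.81 in control samples. The groups did not overlap, the log2 fold change was 0.89 ± 0.11 (SE; adjusted p = 0.000908 in limma), and Pax3 passed in all 26 alternatives. Lower in EED cKO were Tfap2b (-0.87, adjusted p = 0.00627), Lef1 (-0.76, adjusted p = 0.00439) and Tfap2a (-0.30, adjusted p = 0.0200). Tfe3 (-0.45, adjusted p = 0.0258) and Snai2 (-0.39, adjusted p = 0.0450) were lower as well, with overlapping groups. Tfap2b, Lef1 and Tfap2a are factors that keratinocytes or hair follicle cells also express. For Tfap2b and Lef1, as for Pax3, the groups did not overlap, which held for 3 of the 11 tested genes and 17.2% of all tested targets. Tfap2b and Lef1 passed in 23 and 25 of the 26 alternatives, against 15 for Tfap2a. Foxd3 and Tfec had too little signal to be tested.

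**Figure D4:**
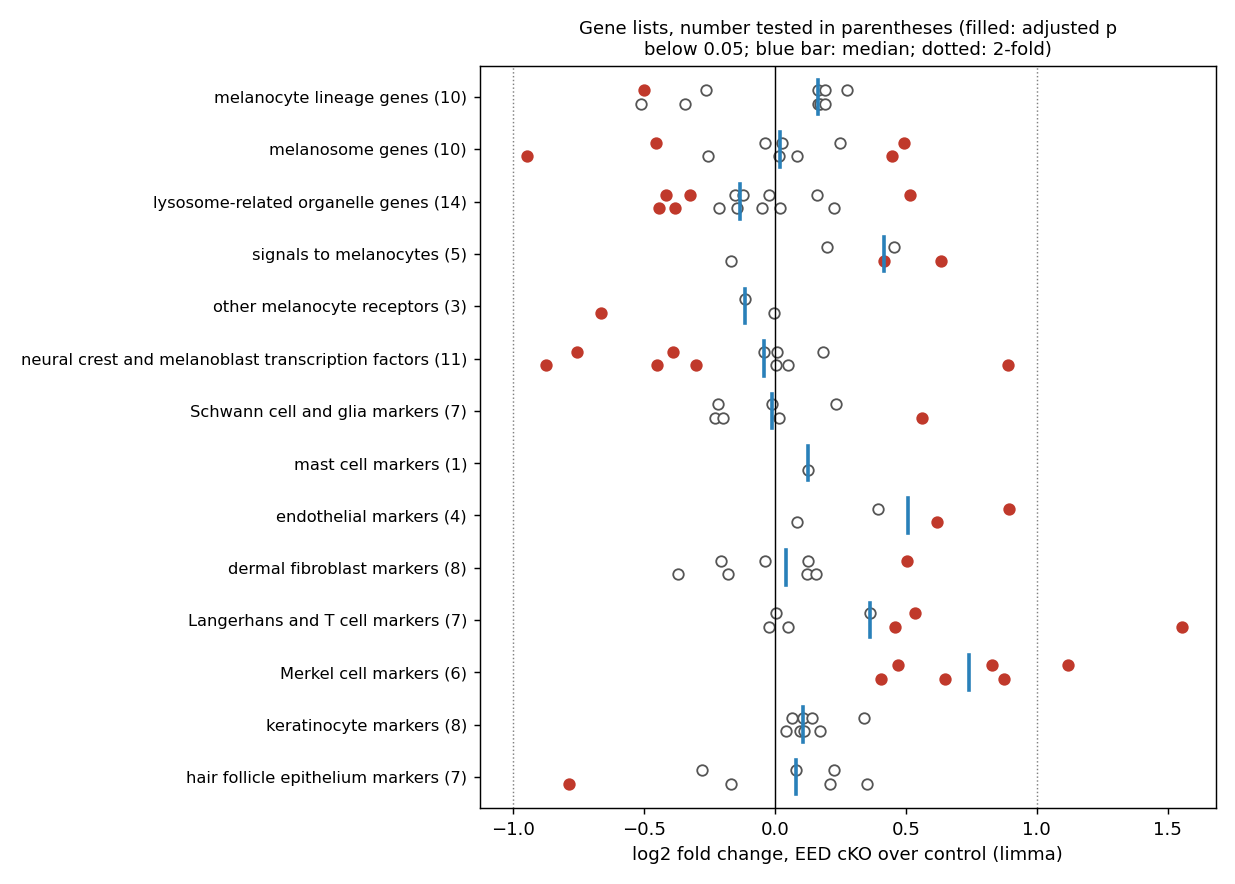
Log2 fold change (x axis), EED cKO over control, of each tested gene in the melanocyte lineage set, in the lists of related genes and in the marker lists of other skin cells (rows, number of genes tested in parentheses); filled points have an adjusted p below 0.05, blue bars are list medians and dotted lines mark 2-fold. The melanocyte lineage genes lie between -0.51 and 0.28, whereas the Merkel cell markers all lie above 0.40.

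Some of the 10 genes are used by other cells that the epidermal preparation could hold, and their markers were measured beside them. The counts of markers that passed stand beside a share of 21.7% over all tested targets. Schwann cells and other glia also use Sox10. Of 10 glial markers 7 were tested, 1 was higher (Mal, 0.56), and the mean log2 ratio of the list was -0.04 to 0.08 in EED cKO and -0.04 to 0.04 in control samples. Fabp7, a glial gene above background on all arrays, gave a log2 fold change of -0.20 (adjusted p = 0.298 in limma), and Cdh19 and Gap43 were above background on none. Mast cells depend on Kit, and 1 of 8 of their markers was tested, Tpsb2 (0.13, adjusted p = 0.257), while Cpa3, Cma1, Ms4a2 and Fcer1a were above background on no array. Endothelial cells also express Ednrb. Of 8 endothelial markers 4 were tested and 2 were higher, Pecam1 (0.89) and Kdr (0.62), whereas Cdh5, Tek and Tie1 were above background on no array. The mean ratio of that list was 0.38 to 0.51 in EED cKO and 0.13 to 0.22 in control samples. The part of these cells in the values of Sox10, Kit and Ednrb was not tested.

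The remaining marker lists describe the tissue, again beside a share of 21.7% that passed over all tested targets. Of 8 dermal fibroblast markers, 1 was higher and 0 lower, and the mean log2 ratio of the list lay between -3.41 and -3.10 in all samples. Langerhans and T cell markers were higher for 3 of 7 tested genes. All 6 Merkel cell markers were higher, with a median of 0.74. Of the 8 keratinocyte markers, 0 passed in limma, 0 had an unadjusted p below 0.05 and 0 passed the methods' test after adjustment. For the unadjusted level, the share over all tested targets was not determined. Hair follicle markers, which matter here because many melanoblasts settle in follicles, gave 1 lower gene, Shh (-0.79, adjusted p = 0.00368 in limma), and 6 that did not pass. By comparison, the mean ratio over the 10 melanocyte lineage genes was 2.38 to 2.73 in EED cKO samples and 2.21 to 2.91 in control samples, with the EED cKO samples inside the control range.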

How the data were processed

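RNA of 4 EED cKO and 4 control newborn epidermis samples (100 ng of total RNA each) was amplified by the authors and hybridized to two-colour Agilent arrays against a common reference. Times in dispase and trypsin differ between the labels and the methods section. The deposited scanner files hold spot intensity values and a log10 ratio per spot from Agilent Feature Extraction 12.0.1.1. The authors also deposited a table of log2 values, which was used as an alternative.

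Median spot signals were background corrected (normexp, offset 50) and loess normalized within arrays with limma 3.58.1 in R 4.3.3, with control spots and outlier spots at weight 0. Ratios were turned to sample over reference and spots of a probe averaged. A gene was represented by its brightest probe. Of 29796 probes with a RefSeq accession, 28026 matched a symbol. Testing required, in either genotype, 3 or more of the 4 arrays with a sample signal well above background. Missing values, 19 in all, were filled with the group mean, and 0 spots were saturated. The fit had genotype and dye as terms, with Benjamini-Hochberg adjustment over all tested targets, and passed means an adjusted p below 0.05. Standard errors, intervals (95%) and p-values come from limma's moderated test. Precision is limited by 4 arrays per group.

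Deviations from the group means ran together in samples that share a replicate number (correlations of 0.49, 0.68, 0.33 and 0.36, and after removal of the dye 0.13 and 0.46), so the numbers were taken as pairs. What the number stands for is not given, and it also marks the dye and the column of the slide, so these cannot be told apart from a pairing of samples. The fit reported throughout has no term for pairs. Pairs enter only in the comparisons by replicate number and in the alternative with the number as a block. The 26 alternatives comprise other background corrections, ratios, filters, terms and tests and the removal of each array in turn. They are not independent of each other. Aquantile scaling between arrays leaves the ratios unchanged, so it repeats the reported fit and could not differ. The deposited table nearly repeats Feature Extraction's log ratio. Counts of alternatives passed include both. All 10 genes are named whatever their values, with up to 4 genes per related list by smallest adjusted p, and other genes were picked with their values in view. The genes and lists were chosen with earlier results of these data known, so no test over a list was run.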

Additional observations from a re-analysis of the deposited data

How the results depend on the processing

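Directions held for 9 of the 10 melanocyte lineage genes under all 26 alternatives, the exception being Mlana at -0.010 with median centring (adjusted p = 0.965). Sox10 passed in 11 of them, a count that includes the Aquantile setting, which repeats the reported fit, and both Feature Extraction's log ratio and the near-identical deposited table. It did not pass with median centring (-0.54, adjusted p = 0.0806), with the sample channel alone (-0.56, adjusted p = 0.0719), or, at a fold change of -0.50, without a filter on dim probes (adjusted p = 0.0757), with the median over probes (adjusted p = 0.0521), without a dye term (adjusted p = 0.212) and by the methods' test (unadjusted p = 0.141, adjusted p = 0.360). With the Y-linked term it was -0.28 (adjusted p = 0.240). Calls were gained by Ednrb with the sample channel alone (-0.37, adjusted p = 0.0363), by Tyr in the methods' test (0.19, unadjusted p = 0.0128), and by Kit with the replicate block (-0.51, adjusted p = 0.0361) and with array brightness as a term (-0.28, adjusted p = 0.0373), an alternative chosen after seeing the data. The block changed no other call among the 10 genes. Among the related genes named it gave Kitl a call. Leaving out 1 array at a time, log2 fold changes ranged from -0.67 to -0.38 for Sox10, -0.69 to -0.33 for Kit, -0.45 to -0.22 for Slc45a2, 0.10 to 0.28 for Mitf and 0.093 to 0.49 for Tyrp1. Mitf passed without control replicate 3 (0.28, adjusted p = 0.0490). Erbb3 turned to 0.28 with Feature Extraction's log ratio and with the deposited table. Met, near 0, turned to 0.0081 with the Y-linked term and ranged from -0.035 to 0.020 with 1 array left out.

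The number of melanocyte lineage genes passing was 0 with median centring, no filter, the median over probes, no dye term, the Y-linked term or the methods' test after adjustment, 2 with the block or array brightness, and 0 to 3 with 1 array left out. Over all tested targets, 2554 passed with median centring (1014 higher and 1540 lower, against 2727 and 2298), 2358 without a dye term, 2805 with the Y-linked term and 913 by the methods' test after adjustment, and 2722 to 5062 with 1 array left out (2722 without control replicate 2, 2947 without EED cKO replicate 4 and 3343 without EED cKO replicate 3). Those that also reached 2-fold numbered 699 with Feature Extraction's log ratio, 698 with the deposited table and 175 by the methods' test after adjustment. The cause of these shifts was not tested. Dim probes limit the ratios of Kit and Slc45a2, which were well above background in the reference channel on 0 and 2 of 8 arrays, and sample signals were also low for Ednrb.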
